A study of Homo sapiens with 6 samples.

Results

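GADD45A, GADD45B, 3 cyclin-dependent kinase (CDK) inhibitors (CDKN1A, CDKN1B and CDKN2B), 4 cyclins that act in G1 (CCND1, CCND3, CCNE1 and CCNE2) and MYC were followed by name through RNA-Seq of OVCAR5 cells, an established ovarian cancer cell line. All 10 genes had a row in the deposited table of 29982 gene symbols, and 9 of them had a mean FPKM that reached 1, as did 13287 genes in all, which were kept for testing. CDKN2B was left out of the test, because it was listed at 0 in all 6 libraries. FPKM (fragments relative to the length of a transcript and to the fragments mapped in the library) is a level per length, so that levels of different genes can be set side by side. The rule that picked the rows uses gene names and no measured value, but the members were chosen with earlier results of these data known. Counts of members set against all genes are thus descriptions only. GADD45A and GADD45B were also among the genes that the study itself picked on these samples, so that they are no independent evidence of direction.

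The 6 libraries comprised 2 of cells given DMSO, the vehicle, 2 of cells given SpiD7 at 10 μM for 2 h, and single ones of cells kept in the same dose for 6 h or 12 h (1 library each). SpiD7 is a spirocyclic dimer that was studied as an inducer of the unfolded protein response (UPR). All groups were the same line in culture, no other agent or allele is named, the length of the vehicle treatment is not given in the labels, and nothing in them says whether replicates came from separate cultures, so that p-values may measure technical spread only. The second DMSO and the second 2 h library were recovered from columns that hold the authors' mean of both libraries of a group, and every value given for a replicate 2 rests on that step.

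The progress of cells through G1 is set by CDKs that cyclins switch on and inhibitors switch off. D-type cyclins, made in answer to growth signals, act with CDK4 and CDK6, and E-type cyclins act with CDK2 at the entry to S phase. CDKN1A (p21) and CDKN1B (p27) bind cyclin and CDK complexes, CDKN2B (p15) binds CDK4 and CDK6, the GADD45 proteins are small stress-induced partners of other proteins, including the kinase MAP3K4, and MYC is a transcription factor of growth genes.

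The promoter windows of 3 members are shown because they belong to genes that were more than 2-fold above the DMSO mean at 6 h and 12 h, and because they differ in their sequence. They run from 250 bases before to 50 bases after a transcript start and come from RefSeq (GRCh38.p14). Windows were taken for 6 of the 10 members (8 windows). GADD45A and CCND1 had no entry, and CCNE2 and MYC were left out of the search of windows. All 3 lie on the plus strand and are written 5′ to 3′, with the motifs that were found in capitals, and in turn they are chr19:2475877-2476176, chr6:36678464-36678763 and chr19:29811741-29812040.
GADD45B: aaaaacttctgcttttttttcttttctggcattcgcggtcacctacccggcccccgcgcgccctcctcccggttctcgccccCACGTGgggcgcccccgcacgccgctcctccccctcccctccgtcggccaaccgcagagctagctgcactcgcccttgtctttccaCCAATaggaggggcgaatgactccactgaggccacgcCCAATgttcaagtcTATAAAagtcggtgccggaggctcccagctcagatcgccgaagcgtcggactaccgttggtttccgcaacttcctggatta
CDKN1A: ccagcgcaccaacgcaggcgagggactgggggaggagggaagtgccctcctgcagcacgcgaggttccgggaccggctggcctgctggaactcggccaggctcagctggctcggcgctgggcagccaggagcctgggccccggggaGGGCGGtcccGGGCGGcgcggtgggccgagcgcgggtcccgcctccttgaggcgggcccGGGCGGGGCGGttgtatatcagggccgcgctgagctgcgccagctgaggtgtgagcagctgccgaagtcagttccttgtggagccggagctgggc
CCNE1: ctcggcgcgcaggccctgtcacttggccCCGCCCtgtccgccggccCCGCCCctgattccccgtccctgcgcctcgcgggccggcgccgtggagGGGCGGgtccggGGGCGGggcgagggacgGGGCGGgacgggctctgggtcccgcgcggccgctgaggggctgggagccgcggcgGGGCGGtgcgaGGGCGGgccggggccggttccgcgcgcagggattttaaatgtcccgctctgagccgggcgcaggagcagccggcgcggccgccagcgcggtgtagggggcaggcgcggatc
The letters searched on both strands were the TATA box TATAAA, the NF-Y box CCAAT, the GC box GGGCGG, the E-box CACGTG, the AP-1 site TGACTCA, the CRE core TGACGT, the E2F site TTTGGCGC and the composite ATF4 and C/EBP core TGATGNAA. In the GADD45B window, TATAAA began 31 bases before the start (−31), CCAAT at −82 and −45, and CACGTG at −168, with no GC box. Of the 35116 promoters of the same length, 11.5% held TATAAA, 34.6% CCAAT and 7.26% CACGTG. The windows of CDKN1A and CCNE1 held GC boxes alone among these motifs, 4 in CDKN1A (a pair of them overlapping by 1 base) and 7 in CCNE1, and 45.0% of all promoters held at least 1. The CCNE1 window was 81.0% G and C, that of CDKN1A 74.3% and that of GADD45B 61.7%, against a median of 58.7% over all promoters. None of the 3 windows held the other letters, which were in 4.95% (AP-1), 7.98% (CRE core), 0.652% (E2F) and 3.62% (ATF4 and C/EBP core) of all promoters. These matches are descriptions of the letters only.

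The table places the members, in human coordinates that its definitions assign to hg38, at chr1:67685176-67688338 (GADD45A), chr19:2476124-2478259 (GADD45B), chr6:36676459-36687339 (CDKN1A), chr12:12716037-12722371 (CDKN1B), chr9:21994790-22121097 (CDKN2B), chr11:69641104-69654474 (CCND1), chr6:41934932-42048894 (CCND3), chr19:29811897-29824317 (CCNE1), chr8:94823289-94895254 (CCNE2) and chr8:127736068-127741434 (MYC). All 10 are protein-coding genes in the GENCODE annotation of GRCh38. The library kit did not mark strand, so that reads cannot be told apart from those of genes on the opposite strand: DINOL for CDKN1A, LTO1 for CCND1, CDKN2B-AS1 and AL359922.1 for CDKN2B, AL513008.1 for CCND3, and INTS8, NDUFAF6, AC087752.4 and AC087752.1 for CCNE2. No gene overlapped GADD45A, GADD45B, CCNE1 or MYC.

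The deposited values carry no counts and the total depth is unknown, but the steps of low values gave depths of 0.769 to 1.12 relative to the first DMSO library. All 7 epithelial markers (such as EPCAM, CDH1 and KRT8) passed the filter, with summed levels of 3214 to 4822 FPKM. Of 4 ovarian markers, PAX8 and MSLN passed, with a list sum of 4.93 to 6.17 FPKM, and WT1 and MUC16 did not reach 1 FPKM in any library. The blood list summed to 3.12 to 9.37 FPKM (1 of 4 markers at 0 throughout), the stromal list to 0.754 to 2.60 FPKM, and the endothelial list to 0.441 to 11.5 FPKM, with the highest sum in the second DMSO library. In bulk RNA, fewer cells that express a gene and less RNA per cell cannot be told apart.

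The DMSO libraries did not match each other for several members, and this spread bears on each comparison. GADD45B was 23.5 and 85.3 FPKM in DMSO replicates 1 and 2, CDKN1A 2.71 and 11.1 FPKM, and MYC 105 and 279 FPKM. These 3 members were more than 2-fold higher in replicate 2, as were 8.72% of all tested genes. None was more than 2-fold lower there, against 4.77% of all genes, although CCND1 came near to it with 112 and 58.0 FPKM. The immediate-early genes FOS (2.34 and 373 FPKM), EGR1 (5.80 and 348 FPKM) and ATF3 (1.06 and 99.4 FPKM) differed between the same libraries by far more. Their part in the differences of the members was not tested.

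At 2 h, limma (log2(FPKM + 0.1), 2 libraries against 2, Benjamini-Hochberg over 13287 genes) called none of the 9 members, and called 3 genes or 0.0226% of all. No member had an unadjusted p under 0.05, whereas 378 genes did. CDKN1A and CCNE1 had both 2 h libraries above both DMSO libraries, which held for 13.7% of all genes, and no member had both below (8.1% of all genes). CDKN1A alone was more than 2-fold above the DMSO mean (2.32% of all genes), and no member was more than 2-fold below it (0.662%).

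At 6 h and 12 h there was a single library, so that differences have no replicate check and no test. At 6 h, 4 of the 9 members were more than 2-fold above the mean of the DMSO libraries on the log2 scale (GADD45A, GADD45B, CDKN1A and CCNE1), against 5.66% of all tested genes. At 12 h there were 5, with MYC added, against 6.48%. No member was more than 2-fold below at either time, whereas 3.1% of all genes were at 6 h and 3.76% at 12 h. GADD45A, CDKN1A and CCNE1 were more than 2-fold above each of the DMSO libraries at both times, which 3.21% of genes were at 6 h and 3.88% at 12 h. Without DMSO replicate 1, these 3 were the only members past 2-fold at 6 h and at 12 h. Against the range of DMSO, 7 members lay above it at 6 h (31.6% of all genes) and 5 at 12 h (30.1%), and none lay below it, where 29.2% and 35.6% of all genes lay. On the log2 scale, the 9 members had a median difference from DMSO of 0.25 (2 h), 0.89 (6 h) and 1.08 (12 h), and that of all genes was −0.01, 0.03 and −0.05.

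**Figure D1:**
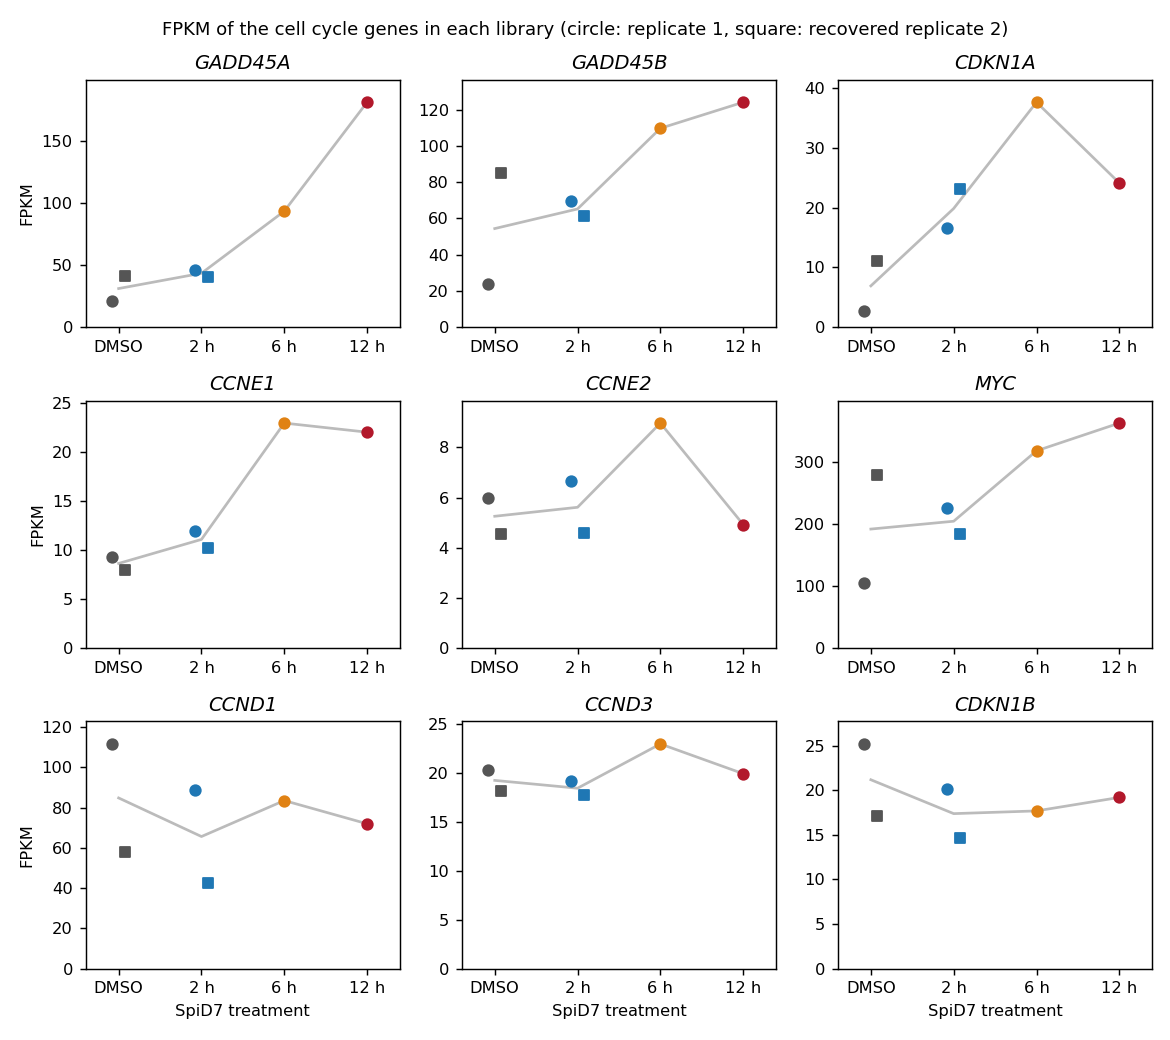
FPKM (linear axis from 0) of the 9 tested members in each library, with DMSO and SpiD7 times on the horizontal axis, circles for replicate 1 and single libraries, squares for recovered replicate 2 and a grey line through the group means. GADD45A climbs from 21.1 and 41.2 FPKM in DMSO to 182 FPKM at 12 h, CDKN1A is highest at 6 h, and the DMSO points of GADD45B, MYC and CCND1 are far apart.

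GADD45A, which is induced by DNA damage and other stress, was 21.1 and 41.2 FPKM in DMSO, 46.2 and 40.7 FPKM at 2 h, 93.6 FPKM at 6 h and 182 FPKM at 12 h. The 2 h values overlapped those of DMSO, because the second 2 h library lay just under the second DMSO library, and the 6 h and 12 h libraries lay above all 4. The difference from DMSO on the log2 scale was 0.56 at 2 h (SE 0.401, limma adjusted p = 1.0), 1.66 at 6 h and 2.62 at 12 h. At 12 h this was 6.15-fold above the DMSO mean, 168 of 13287 genes lay further above it, and against either DMSO library alone the log2 difference was 2.14 or 3.10. The 12 h library of GADD45A was about as far above the 6 h library (0.96 on the log2 scale) as the 6 h library was above the mean at 2 h (1.11).

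GADD45B, the member of the family best known for induction by growth factors and NF-κB signals, was 23.5 and 85.3 FPKM in DMSO, 69.4 and 61.1 FPKM at 2 h, 110 FPKM at 6 h and 124 FPKM at 12 h. Both 2 h libraries fell between the DMSO libraries, and the later ones lay above them. The log2 difference was 0.54 at 2 h (SE 0.723, limma adjusted p = 1.0), 1.29 at 6 h and 1.47 at 12 h. Set against DMSO replicate 2 only, the 6 h value was 0.36 and the 12 h value 0.54, both under 2-fold. The third gene of the family, GADD45G, was not among the members and was far lower, with 0.161 and 0.180 FPKM in DMSO, 1.74 and 1.88 FPKM at 2 h, 5.51 FPKM at 6 h and 6.78 FPKM at 12 h. All 4 libraries of treated cells were above both of DMSO, by 4.67 on the log2 scale at 12 h, a value that the pseudocount of 0.1 lowers.

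Of 10 other genes around the GADD45 proteins (GADD45G, its family's interaction partner GADD45GIP1 and kinases of the p38 and JNK pathways), all passed the filter and none was called at 2 h by limma. At 12 h, 2 were more than 2-fold above DMSO (6.48% of all genes) and none below (3.76%). Those 2 were GADD45G and MAP2K3, a kinase that activates p38, with 35.2 and 38.0 FPKM in DMSO and 109 FPKM at 12 h. MAPK14, p38α itself, had the lowest log2 difference of the list at 12 h (−0.69), at 14.3 FPKM against 23.5 and 22.7 FPKM in DMSO. MAP3K4, the kinase that GADD45 proteins bind, was 6.91 and 6.64 FPKM in DMSO and 9.75 FPKM at 12 h. The median of the list at 12 h was 0.20 on the log2 scale.

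CDKN1A, which is induced by many kinds of stress, was 2.71 and 11.1 FPKM in DMSO, 16.7 and 23.1 FPKM at 2 h, 37.7 FPKM at 6 h and 24.2 FPKM at 12 h. Every library of treated cells lay above both DMSO libraries, and 6 h was the highest. The log2 difference was 1.81 at 2 h, the largest of the members there, with an SE of 0.791 (limma adjusted p = 1.0). It was 2.75 at 6 h, where 131 genes lay further above DMSO, and 2.11 at 12 h. Against the first DMSO library the 6 h value was 3.75 and against the second 1.76, so that the size depends on which control is used.

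CDKN1B was 25.2 and 17.2 FPKM in DMSO, 20.1 and 14.6 FPKM at 2 h, 17.7 FPKM at 6 h and 19.2 FPKM at 12 h. Its 6 h and 12 h libraries lay between those of DMSO, and the log2 differences were −0.28 (SE 0.311, limma adjusted p = 1.0), −0.23 and −0.11. The symbol LOC101929220, placed at the same locus, carried the values of CDKN1B in all 6 libraries, so that the reads of these rows cannot be told apart.

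CDKN2B was listed at 0 in all 6 libraries, and so was its neighbor CDKN2A, which encodes p16 and ARF. In a window of 500000 bases to each side of CDKN2B, chosen after its value was seen, MTAP was at 0 in all libraries but the first of 2 h (0.0147 FPKM), and C9orf53, LOC102724137 and MIR31 were at 0 throughout. The antisense RNA CDKN2B-AS1 was at 0 in both DMSO libraries, 0.0854 and 0.0379 FPKM at 2 h, 0.157 FPKM at 6 h and 0.214 FPKM at 12 h. Further out, MIR31HG (3.20 to 10.1 FPKM), IFNE (0.330 to 0.925 FPKM) and DMRTA1 (1.31 to 3.80 FPKM) were measured in every library. MIR31HG, IFNE and MIR31 are placed at the same locus. CDKN2B-AS1 is placed at the same locus as CDKN2B, and why genes of this window were at 0 was not tested. An FPKM of 0 can be a failed estimate, and DNA was not measured here.

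Among 5 other genes of or around CDK inhibitors, 4 passed the filter and CDKN2A was at 0. None was called at 2 h, and CDKN1C (p57) was the only one more than 2-fold above DMSO at 12 h (6.48% of all genes). It was 1.97 and 3.94 FPKM in DMSO, 3.58 and 5.00 FPKM at 2 h, 4.05 FPKM at 6 h and 6.04 FPKM at 12 h. CDKN2D (p19), with the lowest log2 difference of the list at 12 h (−0.27), was 10.3 and 8.09 FPKM in DMSO and 7.56 FPKM at 12 h. The 12 h library was the highest for CDKN1C, but its DMSO libraries were themselves nearly 2-fold apart. The median of the list at 12 h was 0.00 on the log2 scale.

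**Figure D2:**
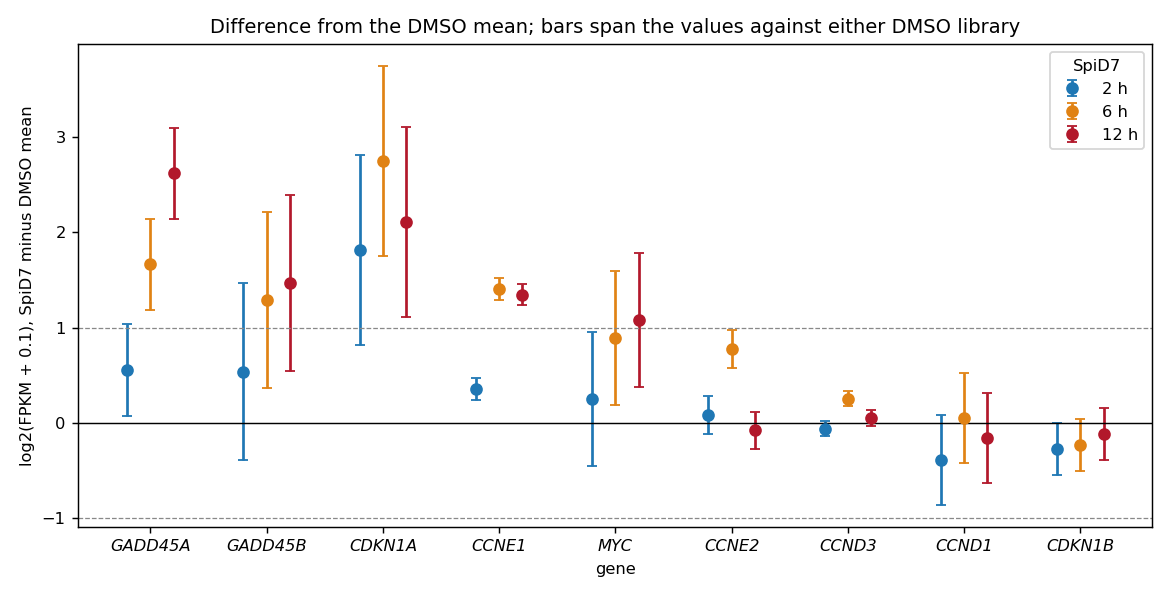
Difference of log2(FPKM + 0.1) from the mean of both DMSO libraries at 2, 6 and 12 h for the 9 tested members. Each bar reaches from the difference against one DMSO library to that against the other, and dashed lines mark 2-fold. The 6 h and 12 h bars of GADD45A, CDKN1A and CCNE1 stay above the upper dashed line, those of GADD45B and MYC cross it, and those of CCND1 and CDKN1B cross 0.

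CCNE1, the cyclin that drives CDK2 into S phase, was 9.31 and 7.95 FPKM in DMSO, 11.9 and 10.2 FPKM at 2 h, 23.0 FPKM at 6 h and 22.0 FPKM at 12 h. The groups did not overlap at any time. The log2 difference was 0.36 at 2 h (SE 0.193, limma adjusted p = 1.0), 1.41 at 6 h and 1.35 at 12 h. Its DMSO libraries were closer together than those of the other members past 2-fold, 0.23 apart on the log2 scale, so that either DMSO library gave a similar size at 12 h (1.23 and 1.46).

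CCNE2, the other E-type cyclin, was 5.98 and 4.53 FPKM in DMSO, 6.64 and 4.58 FPKM at 2 h, 8.97 FPKM at 6 h and 4.92 FPKM at 12 h. It was above both DMSO libraries at 6 h and between them at 12 h. The log2 difference was 0.08 at 2 h (SE 0.292, limma adjusted p = 1.0), 0.77 at 6 h and −0.08 at 12 h. From 6 h to 12 h its value dropped by 0.85 on the log2 scale, while that of CCNE1 dropped by 0.06.

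CCND1 was 112 and 58.0 FPKM in DMSO, 88.7 and 42.6 FPKM at 2 h, 83.5 FPKM at 6 h and 72.0 FPKM at 12 h. The later libraries lay between those of DMSO, and replicate 2 was the lower one in both replicated groups, by 0.94 on the log2 scale in DMSO and 1.05 at 2 h. The log2 differences from DMSO were −0.39 (SE 0.558, limma adjusted p = 1.0), 0.05 and −0.16. The lower value in replicate 2 of both groups was shared by 5 of the 9 members (55.6%) and by 46.7% of all genes.

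CCND3 varied least. It was 20.4 and 18.2 FPKM in DMSO, 19.2 and 17.7 FPKM at 2 h, 23.0 FPKM at 6 h and 19.9 FPKM at 12 h. The log2 differences were −0.06 (SE 0.169, limma adjusted p = 1.0), 0.26 and 0.05. The 6 h library was its highest, and the 12 h library lay between those of DMSO.

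Around the G1 cyclins, 17 of 18 other genes passed the filter (cyclins, CDKs, pocket proteins such as RB1, and regulators), and CCND2, the remaining D-type cyclin, was under 0.1 FPKM in every library. None was called at 2 h by limma. At 12 h, 4 lay above both DMSO libraries (30.1% of all genes) and 7 below both (35.6%), and the median was −0.35 on the log2 scale. At the same time, 1 was more than 2-fold above DMSO (6.48% of all genes) and 1 below (3.76%). The one above was SERTAD1, a CDK4-binding regulator of E2F activity, with 13.9 and 44.5 FPKM in DMSO, 102 and 125 FPKM at 2 h, 140 FPKM at 6 h and 88.8 FPKM at 12 h. Against DMSO replicate 2 alone, its log2 difference at 12 h was 0.99, just under 2-fold. The one below was RBL2, the pocket protein p130, with 11.2 and 15.9 FPKM in DMSO and 6.48 FPKM at 12 h. Against DMSO replicate 1 alone, RBL2 was under 2-fold (−0.78 on the log2 scale). The partner kinases CDK2 (44.3 and 23.7 FPKM in DMSO, 26.8 FPKM at 12 h), CDK4 (124 and 88.6, then 80.3 FPKM) and CDK6 (10.5 and 9.22, then 7.37 FPKM) were not more than 2-fold from DMSO.

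MYC was the most abundant member per length in the means of every group. It was 105 and 279 FPKM in DMSO, 225 and 184 FPKM at 2 h, 318 FPKM at 6 h and 363 FPKM at 12 h. Both 2 h libraries fell between those of DMSO, and the later libraries were above both. The log2 difference was 0.25 at 2 h (SE 0.567, limma adjusted p = 1.0), 0.89 at 6 h and 1.08 at 12 h. Against the second DMSO library the value at 12 h was 0.38, and against the first 1.79, so that the call at 12 h rests on DMSO replicate 1.

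Of 15 names for MYC partners and antagonists, 14 were in the table and 12 passed the filter, and none was called at 2 h. MXD1, which competes with MYC for its partner MAX, was the only one more than 2-fold above DMSO at 12 h (6.48% of all genes). It was 1.11 and 3.38 FPKM in DMSO, 10.9 and 15.0 FPKM at 2 h, 15.1 FPKM at 6 h and 6.65 FPKM at 12 h, with every library of treated cells above both of DMSO. Against DMSO replicate 2 alone, its log2 difference at 12 h was 0.96, under 2-fold. MYCBP2, with the lowest log2 difference of the list at 12 h (−0.59), was 7.20 and 5.64 FPKM in DMSO and 4.21 FPKM at 12 h, and MAX was 36.2 and 30.0 FPKM in DMSO and 43.0 FPKM at 12 h. The median of the list at 12 h was 0.04 on the log2 scale.

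All 20 genes known as targets of MYC passed the filter. None was called at 2 h. At 12 h, 3 were more than 2-fold above DMSO (6.48% of all genes) and none below (3.76%), and the median of the list was 0.09 on the log2 scale. HSPD1, a mitochondrial chaperone with the highest log2 difference of them (1.52), was 966 and 532 FPKM in DMSO and 2055 FPKM at 12 h, ODC1, the first enzyme of polyamine synthesis, 268 and 123 FPKM and then 468 FPKM, and PPAN 37.3 and 16.8 FPKM and then 52.2 FPKM. Against DMSO replicate 1 alone, HSPD1 stayed past 2-fold at 12 h (1.09 on the log2 scale), whereas ODC1 (0.80) and PPAN (0.48) did not. The lowest log2 difference was that of SHMT1 (−0.68), at 17.4 and 12.9 FPKM in DMSO and 9.33 FPKM at 12 h. Of these 20 targets, 9 were more than 2-fold lower in DMSO replicate 2 than in replicate 1, against 4.77% of all tested genes. MYC itself was higher in replicate 2. What set these libraries apart was not tested.

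The list of SMAD and growth factor regulators of CDKN2B, CCND1 and MYC held 17 genes, which all passed the filter. None was called at 2 h. At 12 h, 2 were more than 2-fold above DMSO (6.48% of all genes) and 2 below (3.76%), with a median of 0.30. AXIN2, a feedback target of Wnt signaling with the highest log2 difference at 12 h (2.49), was 0.201 and 0.857 FPKM in DMSO, 0.500 and 1.14 FPKM at 2 h, 2.60 FPKM at 6 h and 2.92 FPKM at 12 h. The lowest log2 difference of the list at 12 h was that of SMAD3 (−1.09), with 34.2 and 50.2 FPKM in DMSO and 19.4 FPKM at 12 h. Against DMSO replicate 1 alone, SMAD3 was under 2-fold (−0.81).

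**Figure D3:**
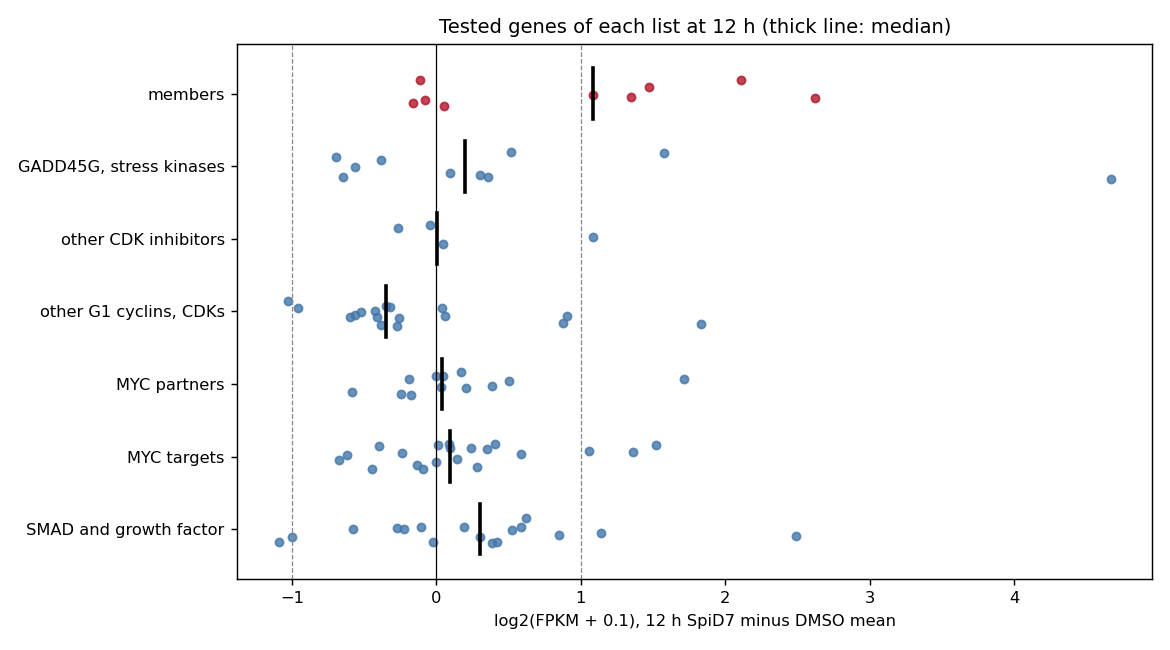
Difference of log2(FPKM + 0.1) at 12 h from the DMSO mean for each tested gene of the 9 members (red) and of 6 lists (blue), with the median as a thick line and 2-fold as dashed lines. The members' median is 1.08, and the list medians lie between −0.35 and 0.30.

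Per length, the order of the members in the DMSO means was MYC, CCND1, GADD45B, GADD45A, CDKN1B, CCND3, CCNE1, CDKN1A, CCNE2 and CDKN2B. The ranges of the DMSO libraries overlapped for each pair of neighbors in that order except CCND3 and CCNE1, where the lowest value of CCND3 (18.2 FPKM) was above the highest of CCNE1 (9.31 FPKM), and CCNE2 and CDKN2B, which was at 0. At 12 h the order was MYC, GADD45A, GADD45B, CCND1, CDKN1A, CCNE1, CCND3, CDKN1B, CCNE2 and CDKN2B. GADD45A thus stood above CCND1 at 12 h (182 against 72.0 FPKM) and below it in both DMSO libraries. CDKN1A stood below CCNE1 in the first DMSO library and above it in the other 5 libraries.

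**Figure D4:**
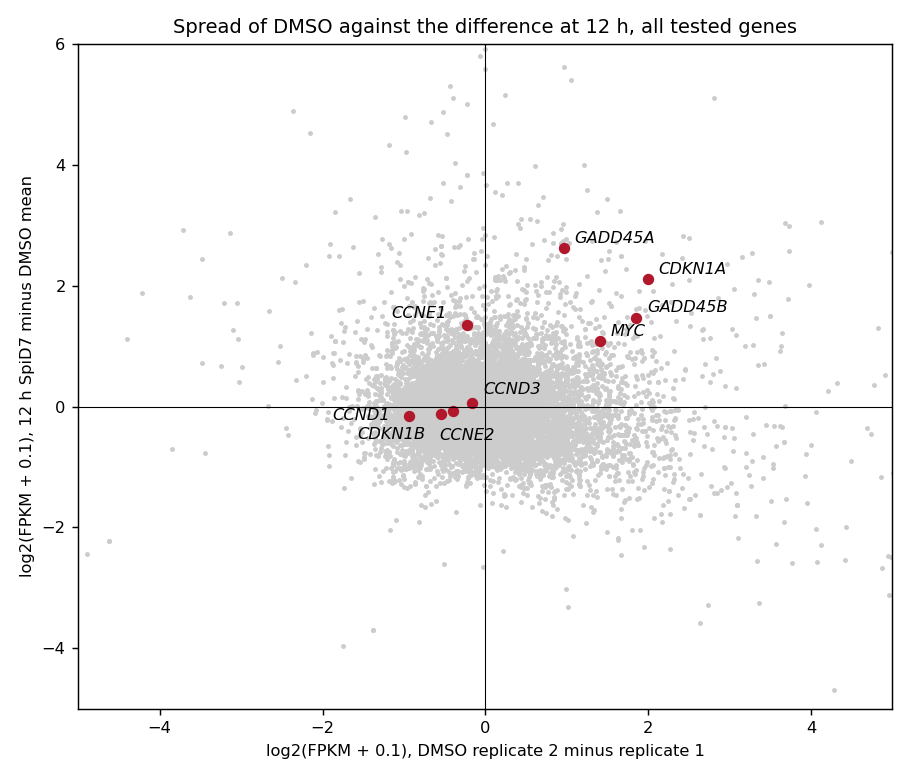
Each point is 1 of the 13287 tested genes, with the difference of log2(FPKM + 0.1) between the DMSO libraries (replicate 2 minus replicate 1) on the horizontal axis and that of the 12 h library from the DMSO mean on the vertical axis. The 9 tested members are red, and 162 genes outside the axes are not shown. CCNE1 stands near 0 on the horizontal axis (−0.23), whereas GADD45B (1.85), CDKN1A (1.99) and MYC (1.41) lie to the right.

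Likeness of pattern was measured as the root mean square difference of log2(FPKM + 0.1), each gene centered on its own mean, over the 6 libraries. It is a description, and the libraries it uses include those of which the members were described above. Among the members, the closest pairs were GADD45B with MYC (0.21) and CDKN1B with CCND3 (0.22), and the nearest member of GADD45A was GADD45B, at 0.49. The measure is not scaled to the variation of a gene, so that genes that vary little, such as CCND3, lie near each other whatever their pattern. Over all tested genes, the nearest to GADD45A were ARL14EPL (0.13), LYPD3 (0.18) and SBK3 (0.20). LYPD3, for example, was 2.01 and 3.02 FPKM in DMSO, 3.38 and 3.76 FPKM at 2 h, 6.71 FPKM at 6 h and 16.5 FPKM at 12 h. The nearest to CDKN1A were PPP1R15A (0.23), SERTAD1 (0.28) and IL10RA (0.28). PPP1R15A, also known as GADD34, a subunit of the phosphatase that acts on eIF2α, was 35.7 and 139 FPKM in DMSO, 236 and 320 FPKM at 2 h, 458 FPKM at 6 h and 471 FPKM at 12 h. The nearest to CCND1 were DVL1 (0.06), LYL1 (0.07) and GINS2 (0.07), which like CCND1 were lower in replicate 2 of DMSO and of 2 h, and genes near to MYC included PLEKHA8P1 (0.11) and PIM1 (0.18).

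DDIT3, which encodes the UPR factor CHOP and is also known as GADD153, was 14.0 and 46.3 FPKM in DMSO, 99.1 and 188 FPKM at 2 h, 203 FPKM at 6 h and 124 FPKM at 12 h. Like CDKN1A, it was above both DMSO libraries at every time and highest at 6 h. ATF4 was 153 and 202 FPKM in DMSO, 270 and 274 FPKM at 2 h, 343 FPKM at 6 h and 326 FPKM at 12 h. JUN, with 28.6 and 187 FPKM in DMSO and 61.7 to 94.4 FPKM in treated cells, had all treated libraries between those of DMSO.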

How the data were processed

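RNA was measured in 6 libraries of OVCAR5 cells. Per the submitters' processing notes and methods, single reads were trimmed (Trim Galore), aligned (TopHat2 2.0.8) and passed to Cufflinks and Cuffdiff 2.1.1. A mouse build is named in the methods, whereas loci in the table are human. The authors deposited FPKM for both sides of 4 Cuffdiff comparisons, each scaled on its own, together with fold changes and p-values that were not used. The number of columns left without a sample or group was 0.

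The columns labelled as DMSO and 2 h replicate 2 were read as means of both libraries. DMSO replicate 1 was above 0 in 18195 rows, of which 0 were at 0 there, and 800 lay at a fixed share of 0.526 of it with 1 row lower. For 2 h the share was 0.509 (944 rows, with 2 lower). Replicate 2 was recovered as the column divided by that share, minus the first library, and a remainder under 0.2% of the column was taken as 0. The 6 h and 12 h comparisons were brought to the scale of the first with factors of 0.972 and 0.994 from their shared DMSO library.

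Rows of a symbol were summed (33085 rows), genes with a mean FPKM under 1 were left out, and log2(FPKM + 0.1) was used. limma 3.58.1 in R 4.3.3 compared 2 h with DMSO (lmFit, eBayes, Benjamini-Hochberg, threshold 0.05 and 2-fold) and was run on simulated data. The pass mark was set only for a simulation with the same spread in every gene. It does not show how readily a change is found at the spread of these libraries. Single libraries were compared by fold only. Python 3.11.15 and pandas 2.3.3 were used for tables. Without counts, no counting error can be given, and a 0 can be a failed estimate. Alternatives were other pseudocounts (0.01 and 1), filters, scalings, the highest row of a symbol, a replicate block, an intensity trend and fits with a library left out. The members, the lists and the rule for named genes (all members, the highest and lowest of each list at 12 h, the nearest patterns and stress genes) were chosen with earlier results of these data known, and other genes of the lists, such as MAP3K4, MAX, PPAN, ODC1, the CDKs, MAP2K3 and CDC25A, were picked after their values were seen. Some items and 1 list are not reported here.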

Additional observations from a re-analysis of the deposited data

How the results depend on the processing

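The labels number the replicates of DMSO and 2 h without saying that a number marks a shared culture or day. How far DMSO replicate 1 and 2 h replicate 1 lay from their group means correlated at 0.369 over 13287 genes, and with 2 pairs this was not taken to show pairing. With the replicate number as a block, limma called 0 members and 0 genes at 2 h (3 without it), 1874 genes had an unadjusted p under 0.05 (378 without it), as did CCND1, CCNE1 and CDKN1B, for which the limma adjusted p was 0.333, 0.333 and 0.348. No call of a member differed under the block.

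Pseudocounts, filters and the treatment of repeated symbols changed no count of members past 2-fold. With the first libraries alone as deposited, 4 members instead of 1 were more than 2-fold from DMSO at 2 h. With the first DMSO library as deposited, 5 instead of 4 were at 6 h, MYC being added (1.60 against 0.89 on the log2 scale), and the sign turned for CCND1 at 6 h (−0.42 against 0.05) and CCND3 at 12 h (−0.03 against 0.05). With median-ratio or upper-quartile scaling, 4 members instead of 3 were more than 2-fold apart between the DMSO libraries, GADD45A being added (1.04 and 1.07 against 0.96). With 1 library left out, the number of members more than 2-fold from DMSO at 2 h ranged from 0 to 3. It was 0 without DMSO replicate 1 and 3 without DMSO replicate 2. At 12 h it ranged from 3 to 5, with 3 without DMSO replicate 1, and at 6 h from 3 to 5. The log2 difference at 2 h changed sign for GADD45B (−0.39 to 1.47), CCND1 (−0.91 to 0.14), CCND3 (−0.14 to 0.022), CCNE2 (−0.18 to 0.35) and MYC (−0.45 to 0.96). For GADD45A it ranged from 0.08 to 1.04 and for CDKN1A from 0.82 to 2.81. limma called no member in any of these fits, but without DMSO replicate 2 CDKN1A, GADD45A and GADD45B had an unadjusted limma p under 0.05, with a limma adjusted p of 0.823, 1.0 and 1.0. In such a fit the lone library is assumed to vary like the other group. The number of all genes called at 2 h was 3 in the reported fit, 1 with a pseudocount of 1 or with either other scaling, 6 with a pseudocount of 0.01, 5 with an intensity trend and 0 to 21 with 1 library left out. Pooling the spread over the 6 libraries gave the same fit, because the single libraries add no residual degrees of freedom. The difference between the DMSO libraries has no value with 1 of them left out.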

Other observations

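Other genes of the G1 and MYC partner lists, named after their values were seen, lay outside the DMSO range at more than 1 time. CDC25A, the phosphatase that activates CDK2, was 8.69 and 4.63 FPKM in DMSO, 11.1 and 5.75 FPKM at 2 h, 17.7 FPKM at 6 h and 12.0 FPKM at 12 h. The later libraries were above both of DMSO, and the 2 h libraries overlapped them. FBXW7, the ubiquitin ligase subunit that recognizes cyclin E and MYC, was 7.14 and 5.85 FPKM in DMSO, 9.36 and 10.9 FPKM at 2 h, 9.57 FPKM at 6 h and 11.9 FPKM at 12 h, above both DMSO libraries at every time. MYCL, a MYC paralog that did not reach the mean level for testing, was 0.539 and 0.395 FPKM in DMSO, 0.646 and 0.471 FPKM at 2 h, 1.58 FPKM at 6 h and 2.04 FPKM at 12 h.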
